A study of Mus musculus with 8 samples.

Results

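The clustered histone genes encode the H1, H2A, H2B, H3 and H4 proteins that package newly made DNA. They were taken here as every gene symbol of the deposited tables that carries a Hist1, Hist2, Hist3 or Hist4 cluster name or its newer equivalent, and 65 of 21080 symbols matched. All 65 carried the cluster names, with 53 genes in Hist1, 9 in Hist2, 2 in Hist3 and 1 in Hist4. By class there were 6 H1, 16 H2A, 18 H2B, 12 H3 and 13 H4 genes. RNA-seq covered mouse BMDMs, which are macrophages cultured out of bone marrow with M-CSF, in 4 groups of 2 samples, and each sample pooled the cells of a pair of mice. WT mice were littermates that carried LysM-Cre, and Nudt21-cKO mice carried Nudt21 fl/fl with the same LysM-Cre, which deletes exons of Nudt21 in myeloid cells. Both genotypes were sampled without stimulation (0 h) and after IFNγ overnight followed by LPS for 4 h. The labels list the IFNγ/LPS treatment for all samples, and the 0 h samples were taken as unstimulated from their titles. The age of the mice is not given in the sources used here.

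Most clustered histone genes are intronless, are transcribed in S phase and make mRNAs that end in a stem-loop instead of a poly(A) tail. The stem-loop is bound by SLBP, and cleavage just after it uses the U7 snRNP. The same loci can also give polyadenylated transcripts from sites further downstream, which is known for non-dividing and differentiated cells. Nudt21 encodes the CFIm25 subunit of cleavage factor I, which binds UGUA and favours distal poly(A) sites, and Cpsf6 and Cpsf7 encode its partner subunits. A library made from poly(A) RNA recovers stem-loop ends poorly. How RNA was selected before library preparation is not given in the sources used here.

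The stem-loop was searched in the GENCODE M21 transcripts (GRCm38) as a 6-base stem, a 4-base loop and the paired stem within 150 bases after the stop codon. The stem had to open with GG and close with CC, and the loop had to read TNTN, where N is any base. The rates below hold for that pattern. It was found in 45 of the 49 histone genes with an annotated 3′UTR of at least 50 bases (91.8%), against 13 of 20610 other genes (0.0631%). It began 22 to 59 bases after the stop codon. The runs below show, in capitals, the 16-base stem-loop of the histone mRNAs on which the comparisons turn, 5′ to 3′ on the strand of the gene and written as DNA.
Hist1h2bf: acccaaaGGCTCTTTTCAGAGCCacctacc
Hist1h2bh: acccaaaGGCTCTTTTCAGAGCCactcaag
Hist1h1c: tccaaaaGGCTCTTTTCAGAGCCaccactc
Hist3h2a: caccaaaGGCTCTTTTCAGAGCCacccaca
Hist2h3c1: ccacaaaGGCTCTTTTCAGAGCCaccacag
Hist2h3c2: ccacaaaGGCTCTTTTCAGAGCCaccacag
Hist1h3c: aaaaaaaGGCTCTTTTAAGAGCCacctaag
Hist1h4i: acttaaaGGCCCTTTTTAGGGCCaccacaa
The first 6 share 1 stem-loop, which 25 genes of the H1, H2A, H2B and H3 classes carried. Hist1h3c had a variant found in 6 genes and Hist1h4i one found in 2 H4 genes, and 7 other H4 genes carried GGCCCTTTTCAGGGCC. No stem-loop was found in Hist1h2bc, Hist1h2bq, Hist1h2br and Hist2h2be, whose annotated 3′UTRs are 742, 823, 823 and 2192 bases long. The annotated 3′UTR of the remaining 16 genes was too short to search. The poly(A) signal AATAAA stood in the last 50 bases of 14 of the 49 histone genes with a 3′UTR of at least 50 bases. Only the transcript with the longest 3′UTR was read there. Among the 20610 other genes with a 3′UTR of that length it stood in 68.4%, where a match in any transcript counted.

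The promoters of these genes also share elements that the choice of genes did not use. In RefSeq promoters of 300 bases, matched for 59 of the 65 genes and searched on both strands, TATAAA was present in 55.9% of the histone genes and in 14.2% of all promoters. CCAAT was present in 84.7%, against 37.9% of all promoters, and in all classes but H4 it was present in every matched gene (H4, 25%). The octamer ATTTGCAT, known from H2B promoters, was present in 20.3%, against 1.75% of all promoters. It was found in 6 of 15 H2A and 6 of 16 H2B promoters and in none of the other 28. A match in a window is a description of its letters.

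The tables name no unit, and each value was taken as the mean read coverage per base of a gene, produced by the authors with StringTie, in which no scaling between samples was seen. Levels are set side by side between genes on the footing that such a value is per length. The tables give no reads behind a value, and the summed coverage of all genes ran from 14950347 to 17954882. Nudt21 itself was at 718 and 641 in WT and 158 and 172 in cKO (0 h), and at 547 and 575 in WT and 142 and 115 in cKO after 4 h, so every library followed its genotype label. Macrophage markers (8 genes, led by Cd68) summed to 120500 to 132900 at 0 h, and to 64070 to 65060 in WT and 70590 to 75280 in cKO after 4 h. The B cell list (4 genes) summed to 125 to 143 in WT and 67.9 to 73.5 in cKO at 0 h, and to 10.49 to 11.04 and 1.70 to 8.08 at 4 h. The T cell list (5 genes) was lower in cKO at 0 h (1.27 to 1.79 against 5.24 to 10.96) and higher in cKO at 4 h (62.2 to 80.6 against 22.8 to 47.9). The mast cell list (3 genes) was lower in cKO, at 4.78 to 5.37 against 7.48 to 9.79 at 0 h and 1.94 to 4.05 against 7.98 to 8.26 at 4 h. The neutrophil list (6 genes) was higher in cKO at 0 h, at 21720 to 28850 against 18970 to 19970, and the dendritic cell and fibroblast lists overlapped between the genotypes at both times. The part of these cells in the results was not tested. Fewer cells making a transcript and less transcript per cell cannot be told apart in these bulk samples.

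A few genes carried most of the histone coverage. The 5 highest genes of a library held 61.2% to 78.6% of it, 18 genes averaged a coverage of at least 20, and 24 genes were at 0 in at least 1 library. By the mean over all 8 samples, in which the 0 h samples weigh most, the highest was Hist1h1c, a linker histone gene (chromosome 13: 23738808 to 23740367, plus strand). The H2B genes Hist1h2bc, Hist1h2bg and Hist1h2bf followed, and then the H2A gene Hist3h2a (chromosome 11: 58954685 to 58956830, plus strand). The H2B gene Hist1h2bq, the H4 gene Hist1h4i and the H2A gene Hist2h2aa2 came next. The order was not the same in every group. At 4 h Hist1h2bc stood above Hist1h1c in both cKO libraries (373 and 413 against 283 and 334) and below it in both WT libraries. The 22 genes with an annotated 3′UTR of at least 300 bases had a median coverage of 17.9, and the 43 with a shorter one had a median of 4.78. The ranges overlapped widely, from 0.534 to 969 in the first and from 0.0124 to 376 in the second. Sequence sharing limits single values. In the median gene 34.7% of the 100-base windows also occur in another gene, 24 genes share at least 50% of their windows and 6 share none, and the library kit is not described as stranded.

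**Figure D1:**
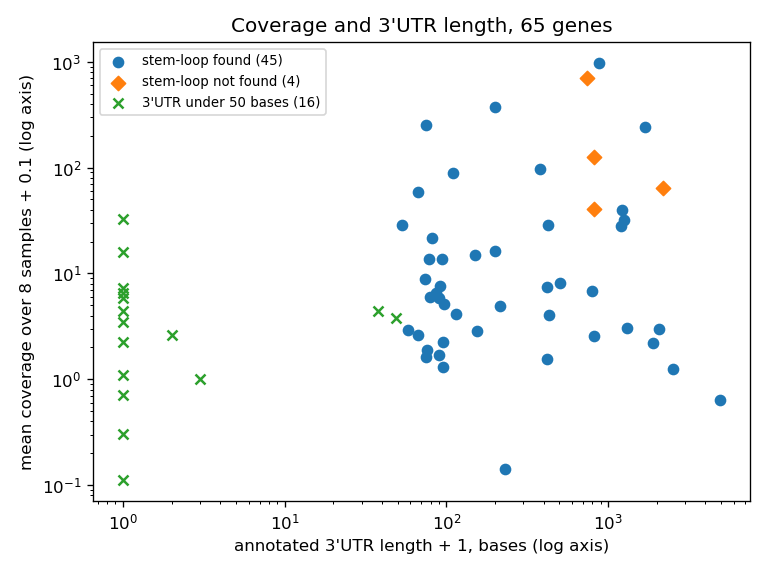
Each point is 1 of the 65 histone genes, with the longest annotated 3′UTR plus 1 in bases on a log horizontal axis and the mean coverage over 8 samples plus 0.1 on a log vertical axis, and the symbol gives the stem-loop search. The 4 genes in which no stem-loop was found all lie at long 3′UTRs and a coverage above 20.

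Summed over all members, histone coverage was high without stimulation and low after it in both genotypes. All 65 genes together summed to 5445 and 4767 in WT and to 5877 and 5725 in cKO before stimulation. At 4 h they summed to 949 and 995 in WT and to 1794 and 2017 in cKO. The group means thus differed 1.14-fold between the genotypes at 0 h and 1.96-fold at 4 h, and the samples of the genotypes did not overlap at either time. As a share of each library the 0 h samples overlapped between the genotypes and the 4 h samples did not, with 345.7 and 301.2 (WT) and 353 and 323 (cKO) units of histone coverage per 1000000 of total coverage at 0 h, and 61.1 and 66.6 (WT) and 103 and 112 (cKO) at 4 h. These sums are descriptions and a handful of genes set them.

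The classes did not move alike. H2A coverage in cKO overlapped between the times, at 408 and 488 before stimulation and 427 and 402 after it. That overlap rested on Hist2h2aa2, at 0 and 56.1 in cKO before stimulation and 218 and 193 after it. All windows of this gene occur in other genes, so its value is uncertain. The H4 group means were 1.76-fold lower at 4 h in WT and 1.73-fold lower in cKO. H2B coverage at 4 h was 361 and 402 in WT and 864 and 1003 in cKO, a ratio of 2.45 between group means. H2A coverage at 4 h was 197 and 192 in WT and 427 and 402 in cKO, a ratio of 2.13 that rested mainly on Hist2h2aa2 and Hist3h2a. H3 coverage went the other way at 0 h, with 270 and 232 in WT and 83.2 and 104 in cKO, a ratio of 0.373 that rested mainly on Hist2h3c1 and Hist2h3c2. In H3 the 4 h samples overlapped, at 66.2 and 62.1 in WT and 46.5 and 65.8 in cKO. H4 coverage was 1.5-fold higher in cKO at 0 h and 1.52-fold at 4 h, and H1 coverage 1.12-fold and 1.51-fold.

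**Figure D2:**
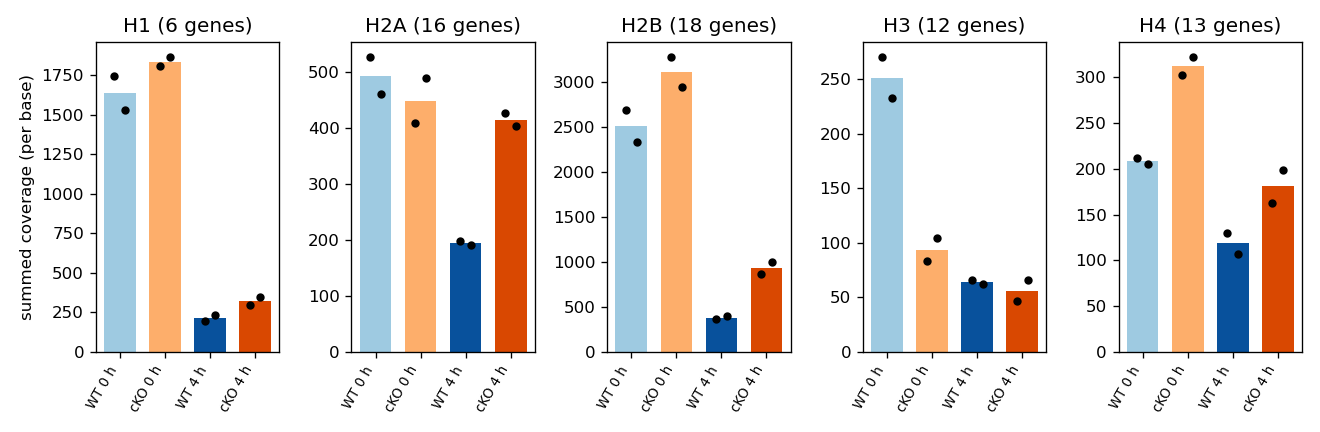
Summed coverage per base of the genes of each histone class, with points for the 2 samples of a group and bars for their mean, on a linear axis from 0 in each panel. H2B and H2A stand higher in cKO than in WT at 4 h, and H3 stands lower in cKO at 0 h.

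To ask which histone genes depend on Nudt21 in unstimulated macrophages, cKO was compared with WT at 0 h. The clearest differences were a loss of coverage of 2 neighbouring H3 genes on chromosome 3 and a gain of an H4 gene on chromosome 13. Hist2h3c1 (96246685 to 96248509, plus strand) was at 127 and 93.1 in WT and at 28.9 and 32.2 in cKO. Hist2h3c2 (96238108 to 96239127, minus strand) was at 88.2 and 74.7 in WT and at 14.2 and 21.5 in cKO. Both genes were thus well below their WT range in each cKO sample. The log2 fold changes on the log2(coverage + 0.1) scale were -1.83 for Hist2h3c1 (SE 0.21, adjusted p = 0.0943 from limma) and -2.21 for Hist2h3c2 (SE 0.27, adjusted p = 0.0999 from limma). Hist2h3c1 and Hist2h3c2 share 100% and 61.6% of their windows with each other, Hist2h3b or Gm20634, so how reads were split between them is uncertain. The third copy, Hist2h3b, was listed at 0 and 15.3 in WT and at 4.28 and 7.83 in cKO.

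Hist1h4i, an H4 gene (chromosome 13: 22040636 to 22041362, minus strand), was at 80.8 and 69.8 in WT and at 168 and 156 in cKO. Its log2 fold change was 1.11 (SE 0.14, adjusted p = 0.0993 from limma), about 2.16-fold. The other well covered H4 genes were also higher in both cKO samples, Hist1h4m at 48.6 and 47.9 against 25.6 and 37.5 and Hist1h4n at 36.4 and 38.9 against 17.2 and 30.4, and neither passed the test. They share 88.1% and 80.7% of their windows with other genes, so they are not separate measurements. Both cKO samples exceeded both WT samples in 36.1% of all genes. The H3 gene Hist1h3c was at 3.30 and 4.54 in WT and listed at 0 in both cKO libraries. It had an adjusted p of 0.021 from limma, which rests on a group with no spread because both values are 0, and no fold is given against a group at 0.

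Over all 62 histone genes tested (mean coverage of at least 0.5) at 0 h, 6 were called higher and 6 lower in cKO by a fold above 1.5 with an unadjusted p under 0.05, the rule of the study. Among all 16251 genes tested, 8.99% were called higher and 5.61% lower, so the 9.68% of histone genes in each direction lay close to the background. Only Hist1h3c kept an adjusted p under 0.05 (1.61%), against 1.03% of all genes. The cKO samples both exceeded the WT samples in 21 histone genes (33.9%, against 36.1% of all genes) and were both below them in 10 (16.1%, against 20.9%). The median log2 fold change was 0.19 over the histone genes tested and 0.10 over all genes. The lower calls were 5 H3 genes and the H4 gene Hist2h4, and the median over the 12 H3 genes was -0.62. In 6 of the 65 genes only 1 genotype had a mean of at least 0.5 at 0 h, among them the called genes Hist1h1b, Hist1h2an, Hist1h3c and Hist1h3g, which passed the filter on low values only through their higher group.

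The other calls at 0 h rested on low values. The linker histone gene Hist1h1a was at 0.79 and 2.43 in WT and 10.7 and 8.76 in cKO. The linker histone gene Hist1h1b was listed at 0 in both WT libraries and at 0.38 and 2.42 in cKO, and the H2A gene Hist1h2an was at 0 and 0.91 in WT and 7.84 and 4.85 in cKO. All of these values lie far below the leading genes, and no counting error was computed for them. The H2B gene Hist1h2bb was at 1.77 in both WT samples and 4.28 and 2.95 in cKO. The H3 genes Hist1h3e (6.43 and 8.30 in WT, 2.19 and 3.86 in cKO) and Hist1h3g (1.51 and 3.96 in WT, 0.19 and 0 in cKO) were lower. Of the 12 calls, 4 were kept with each library left out and under each other pseudocount, filter, scaling and variance estimate, namely Hist1h4i, Hist2h3c1, Hist2h3c2 and Hist1h3c. Of these only Hist1h3c also had an adjusted p under 0.05, and leaving out a cKO library could not alter its 2 values of 0. The calls of Hist1h1a, Hist1h2ah and Hist1h2an were lost without cKO 3 or cKO 4, and those of Hist1h1b and Hist1h2bb without WT 1 or WT 2. Hist1h3e was lost without WT 1, WT 2 or cKO 3, Hist1h3g without WT 2 or cKO 4, and Hist2h4 without WT 2, cKO 3 or cKO 4. With 1 library left out, no histone gene kept an adjusted p under 0.05.

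The leading genes differed less at 0 h. Hist1h1c was at 1687 and 1477 in WT and 1755 and 1807 in cKO, a log2 fold change of 0.17 (SE 0.13, adjusted p = 0.494 from limma). Hist1h2bc was at 1076 and 835 in WT and 1383 and 1221 in cKO, and its log2 fold change of 0.46 (SE 0.19) had an adjusted p of 0.306 from limma. Hist3h2a overlapped between the genotypes, at 451 and 325 in WT and 308 and 356 in cKO. A p that misses the threshold does not show that these genes were alike.

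After IFNγ/LPS the H2B class had the most calls, and 8 of its 15 genes tested were called higher in cKO and 1 lower, where 20.8% and 4.17% of all genes were. Its median log2 fold change was 1.02, and that of the H2A class was 1.06. All 8 lie in Hist1, among its 13 H2B genes tested. Hist1h2bf, Hist1h2bg, Hist1h2bj and Hist1h2bc share 46.4%, 44.9%, 40.1% and 25.4% of their windows with other genes, among them H2B genes of Hist1. Hist1h2bh shares 8.16%. How reads were split between these genes is uncertain, so the 8 calls are not separate measurements. Of the 8, Hist1h2bp was listed at 0 in both WT libraries, and 2 lost their calls after median-centring, which sets the median gene of every sample equal. The largest difference among the well covered genes was that of Hist1h2bf (chromosome 13: 23573736 to 23574196, minus strand), at 39.7 and 41.8 in WT and 143 and 164 in cKO. Its log2 fold change was 1.91 (SE 0.13, 3.75-fold, adjusted p = 0.0416 from limma). Hist1h2bh (chromosome 13: 23541714 to 23543392, minus strand) was at 6.25 and 5.81 in WT and 19.8 and 25.3 in cKO, with a log2 fold change of 1.87 (SE 0.17, adjusted p = 0.0489 from limma). Hist1h2bc (chromosome 13: 23684199 to 23692908, plus strand), the H2B gene with the highest coverage, was at 147 and 150 in WT and 373 and 413 in cKO. Its log2 fold change was 1.40 (SE 0.11, adjusted p = 0.0466 from limma). In all of these the lowest cKO sample was more than 2 times the highest WT sample.

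Hist3h2a was at 80.2 and 77.2 in WT and 173 and 165 in cKO after 4 h, with a log2 fold change of 1.10 (SE 0.10, adjusted p = 0.0484 from limma). It overlaps Trim17, with which it shares 29.8% of its windows, and Trim17 was at no more than 1.5 in any 4 h library. Hist1h2bg (chromosome 13: 23571396 to 23572013, plus strand) was at 80.7 and 105 in WT and 193 and 230 in cKO, and Hist1h2bq was at 35.1 and 35.4 in WT and 54.0 and 71.7 in cKO. Both genes were called higher by the study's rule, with adjusted p values of 0.0732 and 0.0978 from limma, and so were the H2B genes Hist1h2bj and Hist1h2br. Hist1h2bq and Hist1h2br share 100% and 99.8% of their windows with other genes, so their values are uncertain. The call of Hist1h2bq was lost without WT 1, WT 2 or cKO 4, and after quantile normalization or median-centring or with unmoderated variances. Hist1h1c was at 186 and 224 in WT and 283 and 334 in cKO, only 1.51-fold higher, and this call was lost without any 1 of the 4 libraries. Hist2h2aa2 was at 87.7 and 75.6 in WT and 218 and 193 in cKO. All of its windows occur in other genes and it was listed at 0 in 1 library of each genotype at 0 h, so its value is uncertain.

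Not every H2B gene followed. Hist2h2be (chromosome 3: 96221119 to 96223738, plus strand), which shares no window with another gene, was at 12.6 and 15.8 in WT and 9.78 and 5.61 in cKO, a log2 fold change of -0.92 (SE 0.36, adjusted p = 0.194 from limma). After median-centring it was called lower. The H2B gene Hist3h2ba was at 6.83 and 1.67 in WT and 0.49 in both cKO samples, and its lower call was lost without either cKO library. Hist1h2bp was listed at 0 in both WT libraries and at 11.6 and 13.1 in cKO after 4 h, and at 0 and 29.8 in WT and 29.8 and 33.8 in cKO before stimulation. It passed the filter on low values only through cKO, and its adjusted p of 0.013 from limma rests on a WT group with no spread because both values are 0. It shares 34.7% of its windows with other genes, and the part of shared reads in these zeros was not tested.

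Hist2h3c2 was the only gene called at both times, lower in cKO at each. At 4 h it was at 9.98 and 10.5 in WT and 4.30 and 4.36 in cKO, with a log2 fold change of -1.22 (SE 0.10, adjusted p = 0.0466 from limma). Hist2h3c1 was at 8.34 and 11.9 in WT and 6.47 and 7.05 in cKO after 4 h and was called lower only after median-centring. The H4 gene Hist4h4 was at 1.78 and 0.84 in WT and 0.47 and 0.31 in cKO, and its lower call was lost without WT 1, cKO 3 or cKO 4. Among H4 genes that were called higher, Hist1h4d, which shares no window with another gene, was at 1.32 and 1.84 in WT and 4.63 and 4.42 in cKO. The H2A gene Hist1h2ak was listed at 0 in both WT libraries and at 0.76 and 2.34 in cKO, and its call was lost without either WT library.

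Over the 58 histone genes tested at 4 h, 15 were called higher (25.9%) and 3 lower (5.17%) in cKO. Among all 14950 genes tested, 20.8% were called higher and 4.17% lower, so the histone share of higher calls stood near a background that was itself raised. With an adjusted p under 0.05 there were 6 histone genes (10.3%), against 3.86% of all genes, namely Hist1h2bp, Hist1h2bf, Hist1h2bc, Hist1h2bh and Hist3h2a higher and Hist2h3c2 lower. Of these, Hist1h2bp is the gene listed at 0 in WT. The cKO samples both exceeded the WT samples in 26 histone genes (44.8%, against 51.1% of all genes) and were both below them in 9 (15.5%, against 14.9%). The median log2 fold change was 0.71 over the histone genes tested and 0.31 over all genes. In 13 of the 65 genes only 1 genotype had a mean of at least 0.5 at 4 h. Among them were the called genes Hist1h2ak, Hist1h2bp, Hist3h2ba and Hist4h4, which passed the filter on low values only through their higher group.

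The shift of all genes bears on these counts. After each sample was centred on its median gene, 10 histone genes were called higher and 7 lower in cKO at 4 h, against 10.4% and 9.9% of all genes. The 10 were all among the 15, and the 4 added lower calls were Hist1h2ae, Hist1h3c, Hist2h2be and Hist2h3c1. The H2B genes that lost their calls on centring were Hist1h2bj and Hist1h2bq. By class, 8 of 15 H2B genes tested were called higher and 1 lower on the deposited scale, 3 of 14 H2A genes higher, 1 of 12 H3 genes each way, 2 of 13 H4 genes higher and 1 lower, and 1 of 4 H1 genes higher. Of the 18 calls, 7 were kept with each library left out and under each other pseudocount, filter, scaling and variance estimate, namely Hist1h2bc, Hist1h2bf, Hist1h2bh, Hist1h2bp, Hist1h4d, Hist3h2a and Hist2h3c2. Of these Hist1h4d had no adjusted p under 0.05, and leaving out a WT library could not alter the 2 values of 0 of Hist1h2bp. The 6 adjusted calls did not hold with any 1 library left out, in a fit where the lone sample is assumed to vary like the other group. With the spread taken from all 8 samples, 14 histone genes had an adjusted p under 0.05. The share of all genes in that fit is not given here, so this count has no background beside it.

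**Figure D3:**
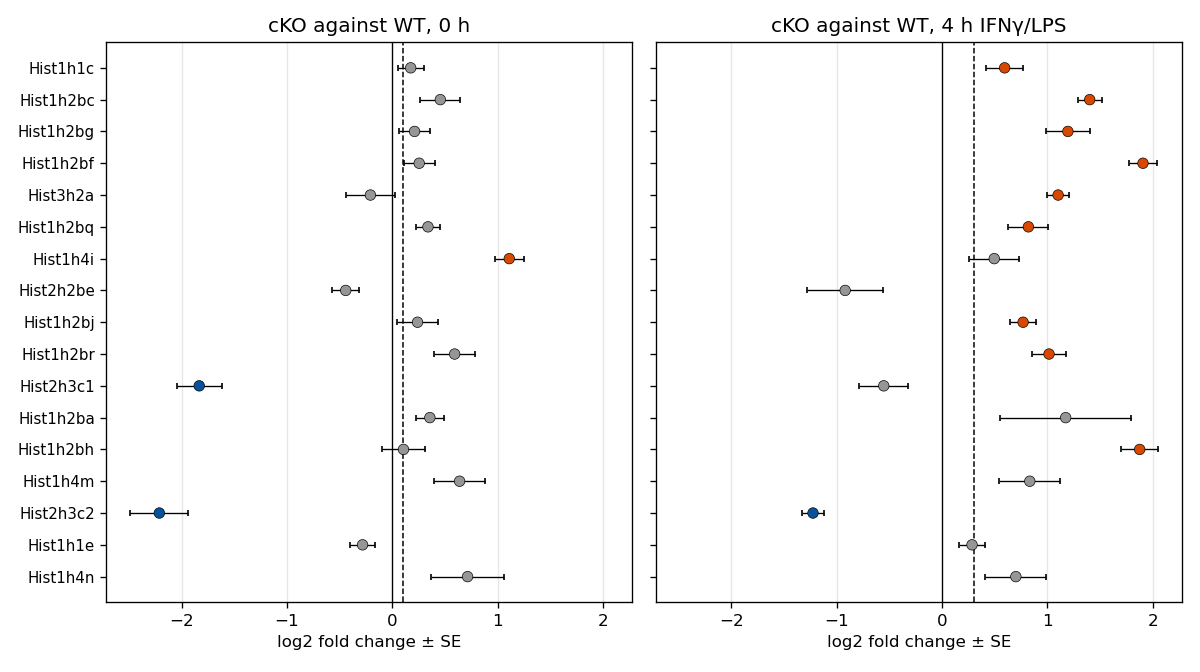
Log2 fold change of cKO against WT with its standard error from limma, at 0 h and at 4 h, for the well covered histone genes other than Hist2h2aa2, in order of mean coverage. Orange points were called higher and blue points lower, grey points were not called, and the dashed line is the median of all genes (0.10 at 0 h and 0.31 at 4 h).

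Of the 18 well covered histone genes, 16 were called lower at 4 h in WT and 17 in cKO, and after median-centring 14 were in WT and 8 in cKO, where 22.2% and 22.4% of all genes were. These 18 were taken by their mean over both times, which admits genes that are high at 0 h and low at 4 h, so nothing is read from their counts against other genes. The 2 times were deposited in separate tables of the same unit, and the median gene was itself lower at 4 h, with a log2 fold change of -1.24 in WT and -1.03 in cKO. Hist1h1c had a log2 fold change of -2.95 in WT (SE 0.15, adjusted p = 7.75e-05 from limma) and -2.53 in cKO. After median-centring these were -1.49 and -1.33, both still called. Hist1h2bf had -3.19 in WT and -1.54 in cKO, and Hist1h2bc had -2.67 and -1.73. After median-centring the cKO values of Hist1h2bf and Hist1h2bc were -0.34 and -0.53, and neither was called there. The H3 genes Hist2h3c1 and Hist2h3c2 had -3.44 and -2.97 in WT, from the 0 h and 4 h values given above. In WT the 3 well covered H4 genes were the least lowered other than Hist2h2aa2, and Hist1h4i had -0.25 in WT and -0.86 in cKO. Median-centring turned their direction in WT, to 1.22 for Hist1h4i, which was then called higher, and to 0.17 for Hist1h4m and 0.13 for Hist1h4n, which were not called. In cKO it turned Hist1h4i to 0.34, Hist1h4m to 0.10 and Hist3h2a from -0.97 to 0.23, and none of these lower calls was left. The H2B gene Hist2h2be had -3.26 in WT and -3.74 in cKO, from 136 and 135 to 12.6 and 15.8 in WT and from 93.2 and 107 to 9.78 and 5.61 in cKO.

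Counted over the 62 histone genes tested, 28 were called lower (45.2%) and 1 higher (1.61%) at 4 h in WT, where 56% of all genes were lower and 12% higher. In cKO 25 were called lower (40.3%) and 3 higher (4.84%), where 51.9% of all genes were lower and 13.5% higher. On the deposited scale the share of histone genes called lower was thus below that of all genes in both genotypes. After median-centring 17 of the 62 were called lower and 7 higher in WT, where 22.2% of all genes were lower and 34.7% higher. In cKO 10 were called lower and 5 higher, where 22.4% of all genes were lower and 32.7% higher. The 3 genes called higher in cKO on the deposited scale were Hist1h3c, Hist1h3e and Hist1h4d, which had low values at both times. By group means the summed histone coverage was 5.25-fold lower at 4 h in WT and 3.04-fold lower in cKO.

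**Figure D4:**
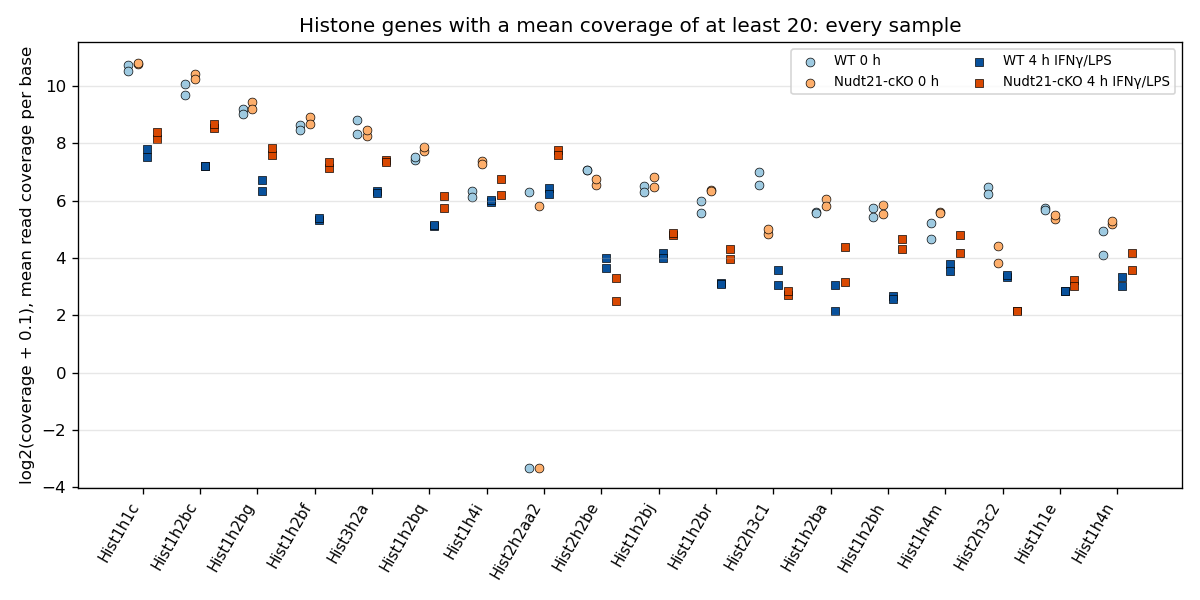
Log2(coverage + 0.1) of the 18 histone genes that average a coverage of at least 20, with 2 points for each of the 4 groups. Circles (0 h) lie above squares (4 h) for most genes, and Hist2h2aa2 has 1 library at 0 in each genotype at 0 h.

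**Figure D5:**
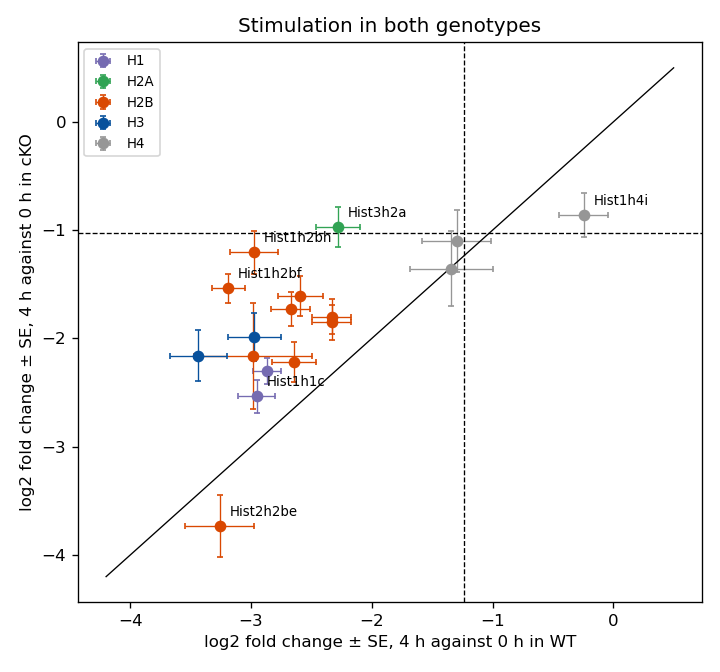
Log2 fold change of 4 h against 0 h with its standard error from limma, WT on the horizontal and cKO on the vertical axis, for the well covered histone genes other than Hist2h2aa2, coloured by class. The solid line marks equal change, the dashed lines mark the median of all genes (-1.24 in WT and -1.03 in cKO), and Hist1h2bf, Hist1h2bh and Hist3h2a lie farthest above the solid line.

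An interaction term over all 8 samples tested whether the effect of genotype depended on time. It had an adjusted p under 0.05 in 3 of the 62 histone genes (4.84%), against 3.05% of all 16284 genes. With a replicate block, described in the last paragraph, none of the 3 calls was left. For Hist1h2bf the effect of cKO was 1.65 higher on the log2 scale at 4 h than at 0 h (SE 0.19, adjusted p = 0.0258 from limma), and for Hist1h2bh it was 1.77 higher (SE 0.28, adjusted p = 0.0479 from limma). At 0 h Hist1h2bf was at 395 and 351 in WT and 480 and 412 in cKO, so both cKO samples already lay above WT, and Hist1h2bh overlapped between the genotypes. The third gene, Hist1h3c, was at 6.80 and 7.24 in WT and 4.90 and 5.80 in cKO after 4 h and at 0 in cKO at 0 h, and its adjusted p was 0.00196 from limma, which also rests on the group at 0. Hist3h2a had an interaction of 1.31 (SE 0.26) with an adjusted p of 0.0732 from limma. After median-centring the interaction was 1.39 for Hist1h2bf (adjusted p = 0.0622 from limma) and 1.504 for Hist1h2bh (adjusted p = 0.101 from limma). The 3 calls thus fell to 1, which left Hist1h3c, and to 1 without cKO 3 at 0 h, cKO 3 at 4 h or cKO 4 at 4 h. Without WT 1 at 4 h the H2B gene Hist1h2bn, named here after its values were seen, was called in the other direction. It was listed at 0 in 3 of the 4 libraries at 4 h and at 5.86 in WT 2.

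Genes with roles around the clustered histones were counted on lists. Of 25 genes of histone mRNA processing, transcription and decay, 2 were called higher and 1 lower in cKO at 0 h, and 4 higher and 1 lower of 24 at 4 h, where 8.99% and 5.61% of all genes were called higher and lower at 0 h and 20.8% and 4.17% at 4 h. The lower gene at both times was Nudt21, which is deleted in cKO, so that call was fixed by the design. Cpsf6, its partner subunit, was at 804 and 798 in WT and 2406 and 2477 in cKO before stimulation, and its log2 fold change was 1.61 at 0 h (adjusted p = 0.0456 from limma) and 1.95 at 4 h (adjusted p = 0.0325 from limma). Ncbp2, a subunit of the nuclear cap-binding complex, was at 667 and 602 in WT and 1407 and 1631 in cKO (0 h) and at 238 and 217 in WT and 971 and 1047 in cKO after 4 h. Slbp, the stem-loop binder, was at 576 and 565 in WT and 563 and 637 in cKO (0 h), and at 355 and 318 in WT and 457 and 493 in cKO after 4 h, and passed at neither time. Both 4 h cKO samples of Slbp lay above WT.

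Of 35 genes of S phase and mitosis, 3 were called higher in cKO at 0 h and 4 at 4 h, with none lower, where 8.99% and 20.8% of all genes were called higher. Their median log2 fold change was 0.03 at both times, against 0.10 and 0.31 over all genes. The proliferation marker Mki67 was at 198 and 250 in WT and 353 and 392 in cKO (0 h), and at 1336 and 1362 in WT and 2998 and 3112 in cKO after 4 h. The mitotic cyclin gene Ccnb2 was at 99.4 and 85.7 in WT and 157 and 203 in cKO before stimulation, and Chaf1b, a subunit of the chaperone that deposits histones at forks, was at 79.4 and 106 in WT and 200 and 170 in cKO after 4 h. The replication genes Pcna and Mcm5 passed at neither time, and Pcna was at 5616 and 5354 in WT and 4065 and 4064 in cKO before stimulation. The mitotic kinase gene Cdk1 was at 309 and 468 in WT and 237 and 185 in cKO after 4 h, and Top2a, which encodes a DNA topoisomerase, was at 216 and 392 in WT and 202 and 171 in cKO. Their log2 fold changes were -0.86 and -0.65, those of Pola1 and Tyms were -0.73 and -0.58, and none of these 4 passed the test. After median-centring 6 of the 35 genes were called lower in cKO at 4 h and 2 higher, where 9.9% of all genes were lower and 10.4% higher. Their part in the histone differences was not tested.

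Of 11 replication-independent histone genes, 1 was called higher in cKO at 0 h and 3 higher and 1 lower at 4 h, where 8.99%, 20.8% and 4.17% of all genes were. H1fx, a linker histone gene outside the clusters, was at 3.45 and 3.61 in WT and 22.6 and 31.9 in cKO after 4 h, with an adjusted p of 0.0453 from limma. H1f0, the linker histone gene of differentiated cells, was at 803 and 654 in WT and 1170 and 1395 in cKO (0 h) and at 67.9 and 72.7 in WT and 151 and 201 in cKO after 4 h. Cenpa, the centromeric H3, was lower at 4 h, at 95.6 and 132 in WT and 54.3 and 68.7 in cKO. Of 13 histone chaperone genes none was called at 0 h and 1 higher at 4 h (20.8% of all genes), Nasp, a chaperone of H3 and H4 and of linker histones, at 244 and 306 in WT and 447 and 489 in cKO. For any 1 gene, relabelling 2 against 2 samples exactly in every way allows no two-sided p smaller than 0.333. The added 0.1 shrinks the folds of low genes, and pooling hides the spread between animals.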

How the data were processed

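The authors aligned paired-end reads to GRCm38 with HISAT2 2.2.1, quantified RefSeq genes with StringTie 2.1.7 and deposited 1 coverage signal per symbol and sample, in 1 table per time. No unit is named, and coverage was inferred because values become whole bases when multiplied by GENCODE transcript length in 5 histone genes. RefSeq spans gave none in those 5, and 51 genes were not whole by any multiplier tried, so the unit and the annotation used are uncertain. The authors' fold change, p-value and class columns were not used, and 0 columns of sample values were left out. At each time limma 3.58.1 (R 4.3.3) compared the genotypes on log2 values after adding 0.1, among genes averaging at least 0.5 in those samples, and stimulation and the interaction over all 8 samples. A call needed a fold above 1.5 with p under 0.05, or a Benjamini-Hochberg adjusted p under 0.05 for the interaction. The comparison was tested on simulated data. Single genes named were the leading genes of each class and of all, the largest calls at each time and every adjusted call. The histone genes and lists were chosen with earlier results of these data known. The p-values measure the spread between 2 pooled samples, and the tables give no read counts per gene. No counting interval was computed, since turning coverage into reads would rest on the inferred unit. Alternatives covered the pseudocount, filter, scaling, variance and samples. Positions, stem-loops and shared windows came from GENCODE M21, promoters from RefSeq on GRCm38. Values of 1 marker list are not reported here.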

Additional observations from a re-analysis of the deposited data

Results flagged for a closer look

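In 3 histone genes the interaction term passed the test, and no call was left with the replicate block given in the last paragraph. The fitted effect of genotype was higher at 4 h than at 0 h by 1.65 on the log2 scale for Hist1h2bf and by 1.77 for Hist1h2bh. After median-centring the values were 1.39 and 1.504 with adjusted p values of 0.0622 and 0.101 from limma. The fitted value of Hist1h3c was 4.92, or 1.95 when 1 was added to the coverage in place of 0.1, so the added constant sets it and it is neither a fold nor a bound, since both cKO libraries at 0 h are listed at 0. Hist1h1e, a linker histone gene, did not pass the test but its samples changed order: both cKO samples lay below WT at 0 h (40.9 and 45.2 against 54.1 and 50.6) and above it at 4 h (9.29 and 8.06 against 7.11 and 7.06). The 4 h difference of 0.28 on the log2 scale turned to -0.052 after median-centring and -0.054 after quantile normalization. Its interaction of 0.57 (SE 0.17) had an adjusted p of 0.141 from limma, and from 0.148 to 0.415 under the alternatives. Groups of 2 samples are too small for a test of outlying samples.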

How the results depend on the processing

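Counts of histone genes called changed with the adjusted p, the scaling and the variance estimate. Shares of all genes are given above only for the main fit and after median-centring. The other counts of this section have no background beside them. At 0 h the 6 higher calls became 3 after quantile normalization or with all 8 samples in the fit and 1 with unmoderated variances, and the 6 lower calls became 3 with unmoderated variances. By adjusted p there were 0 higher and 1 lower. At 4 h the 3 lower calls became 9 after quantile normalization, 7 after median-centring, and 1 with no filter on low values, with unmoderated variances or by adjusted p, and the 15 higher calls became 5 by adjusted p. For stimulation in WT, median-centring gave 7 higher and 17 lower and quantile normalization 9 higher and 15 lower. In cKO these gave 5 and 10, and 7 and 12. Median-centring left 1 interaction call and so did quantile normalization, which for the interaction was chosen after seeing the data. Leaving out each library in turn gave 1 to 3 interaction calls higher and 0 to 1 lower.

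Counting only genes above 0 in every library compared, or only those sharing under 50% of their windows, was also chosen after seeing the data. The first removed the 1 higher call of stimulation in WT (0 left), and the second left 16 lower calls in WT and 14 in cKO. The median log2 fold change of the histone genes at 4 h against 0 h was -1.51 in WT and -1.34 in cKO, and 0.18 and 0.01 after quantile normalization. Among single genes compared between the genotypes, the direction turned for Hist3h2a at 0 h (-0.45 to 0.029 with 1 library left out), for Hist2h2aa2 at 0 h (-5.05 to 4.57) and for Hist1h1e at 4 h after quantile normalization (-0.054) or median-centring (-0.052). In none of these was the gene called, and the cause was not tested.

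Each genotype has the same replicate numbers at 0 h and 4 h (1 and 2 for WT, 3 and 4 for cKO), and the sources used here do not say that a number marks a shared source. Same-numbered samples deviated together with a correlation across genes of 0.02 in WT and 0.024 in cKO, so the numbers were not taken as pairs. With a replicate block the 3 interaction calls became 0. The tables give no read counts, so no counting error was computed for calls on levels below about 1 or on genes listed at 0.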
